A study of Mus musculus with 4 samples.

Results

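Protein tyrosine phosphatases and dual-specificity phosphatases were examined in a mouse T-cell line in which nuclear Ikaros can be induced. The genes were taken by symbol alone, as Ptpr with a letter (receptor-type), Ptpn with a number (non-receptor) or Dusp with a number (dual-specificity), from probe sets that carry exactly 1 gene symbol, and the probe set with the highest mean was used for each gene. This gave 61 genes of the 19938 with such a probe set: 20 receptor-type, 17 non-receptor and 24 dual-specificity. Ptprt was not analysed here.

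All 4 samples were ILC87-Ik1-ER cells. ILC87 was established from 1 thymic tumour of a mouse with floxed Ikaros alleles and the Lck-cre transgene (Ikaros f/f Lck-cre+), so that Ikaros was deleted in the T lineage. The labels give the strain as C57BL/6, while the study's methods describe its Ikaros f/f Lck-cre+ mice as having a mixed strain background that is only in part C57BL/6. The cells had been transduced with the MigR1 retrovirus carrying Ik1-ER, the full-length Ikaros-1 isoform joined to the ligand-binding part of the oestrogen receptor, together with GFP, and GFP+ cells were sorted. In 2 samples the cells were given 100 nM 4-hydroxytamoxifen (4OHT), which moves Ik1-ER into the nucleus, and in the other 2 samples they were given ethanol (EtOH), the vehicle, both for 24 h. Both groups thus lacked endogenous Ikaros and carried Ik1-ER. No array of 4OHT-treated cells without Ik1-ER was analysed here, so that an effect of 4OHT itself and one of nuclear Ikaros cannot be told apart.

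Phosphatases of this superfamily remove phosphate from tyrosine by means of a cysteine in the active site. Receptor-type members span the plasma membrane, and the best known in T cells is CD45 (Ptprc), which removes the inhibitory phosphate from the kinases Lck and Fyn. Non-receptor members such as SHP-1 (Ptpn6) and PEP (Ptpn22) are recruited to signalling complexes inside the cell and restrain signals of the T-cell receptor. Dual-specificity phosphatases also act on serine and threonine, and one branch, the MAP kinase phosphatases, switches off the kinases ERK, JNK and p38, and several of its genes are themselves induced by those kinases.

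The promoters of 2 of these genes are shown because Ptprn is the receptor-type gene that rose and Ptprc encodes the main phosphatase of the T-cell surface. The sequences are from RefSeq (GRCm38.p6, minus strand of the genome, read 5′ to 3′ along the gene) and cover the 250 bases before the first listed start. Capitals mark AGGAA or its reverse complement TTCCT, the core letters of the motif that Ikaros is known to bind.
Ptprn, chr1:75264209-75264458: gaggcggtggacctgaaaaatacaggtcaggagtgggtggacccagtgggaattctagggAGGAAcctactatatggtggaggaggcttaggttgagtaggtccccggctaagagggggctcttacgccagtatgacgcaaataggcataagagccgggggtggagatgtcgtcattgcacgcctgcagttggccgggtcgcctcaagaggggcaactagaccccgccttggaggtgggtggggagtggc
Ptprc, chr1:138175306-138175555: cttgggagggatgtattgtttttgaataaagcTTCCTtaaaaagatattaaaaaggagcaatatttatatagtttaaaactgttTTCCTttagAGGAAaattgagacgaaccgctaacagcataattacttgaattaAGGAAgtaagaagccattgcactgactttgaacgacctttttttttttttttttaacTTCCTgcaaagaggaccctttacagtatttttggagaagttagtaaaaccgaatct
The letters were found 1 time before Ptprn and 5 times before Ptprc. Of the 49 phosphatase genes with a listed promoter, 35 (71.4%) held AGGAA on either strand in the same window, as did 16281 of 27025 genes in all (60.2%). Such a match is a description of letters and no evidence of a binding site.

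The deposited values were log2 expression levels after robust multi-array averaging (RMA), which brings the arrays to a common distribution. They covered 35556 probe sets and ranged from 3.09 to 14.2, with array medians between 7.11 and 7.16. Over probe sets, as dependent points, Pearson's r was 0.994 to 0.996 within a treatment and 0.989 to 0.990 between treatments. Among markers of T cells, the 8 measured genes of 10 listed all lay above the array medians, whereas the 7 B cell, 9 myeloid and 2 erythroid markers measured all lay below them, as did 4 of the 5 natural killer cell markers. The summed linear level of the T-cell markers was 38522 to 38880 on the EtOH arrays and 32480 to 32992 on the 4OHT arrays, and that of the natural killer cell markers, mainly through Prf1, was 214 to 249 and 330 to 332. The T-cell markers did not move together: Cd3d fell (log2 fold change −0.94, adjusted p = 0.0172 in limma), and of the 7 not called 4 had arrays apart in the lower and 3 in the higher direction. Of the dim myeloid markers, Lyz2 fell by 1.24 and Itgam rose by 0.68. The part of these shifts in the results was not tested. The labels do not state that the arrays of a group are separate cultures, and p-values here therefore describe these samples only, whose spread may be technical. The spread used for each probe set is also drawn in limma from all 35556 probe sets (2.66 prior beside 2 residual degrees of freedom). Fewer cells of a type and less RNA per cell cannot be told apart in such samples.

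A gene was called where limma, fitted over all probe sets, gave a Benjamini-Hochberg adjusted p under 0.05. Of the 61 phosphatase genes, 2 were called: Ptprn rose and Dusp9 fell. Over all 19938 genes 843 were called (4.23%), of which 597 fell (2.99%) and 246 rose (1.23%). The arrays of the treatments did not overlap for 18 phosphatase genes that were lower and 20 that were higher with 4OHT, while 23 overlapped. The background for these counts was 24.5% of all genes lower and 32.1% higher, 56.6% in all, so that a share near these values says nothing of the phosphatases. An unadjusted p under 0.05 in limma was found for 20 phosphatase genes (32.8%), 10 in each direction, beside 20.4% of all genes. Above the array medians it was found for 16 of 37 phosphatase genes (43.2%), beside 30.4% of all genes there. Below them it was found for 4 of 24 (16.7%), beside 9.17%. The difference between these shares was not tested. The median log2 fold change (4OHT over EtOH) was 0.03 for the 61 genes and also 0.03 for all genes, and the phosphatases ranged from −0.69 to 0.62. The number of arrays limits the precision, and the smallest two-sided p that an exact permutation of these arrays allows is 0.333.

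**Figure D1:**
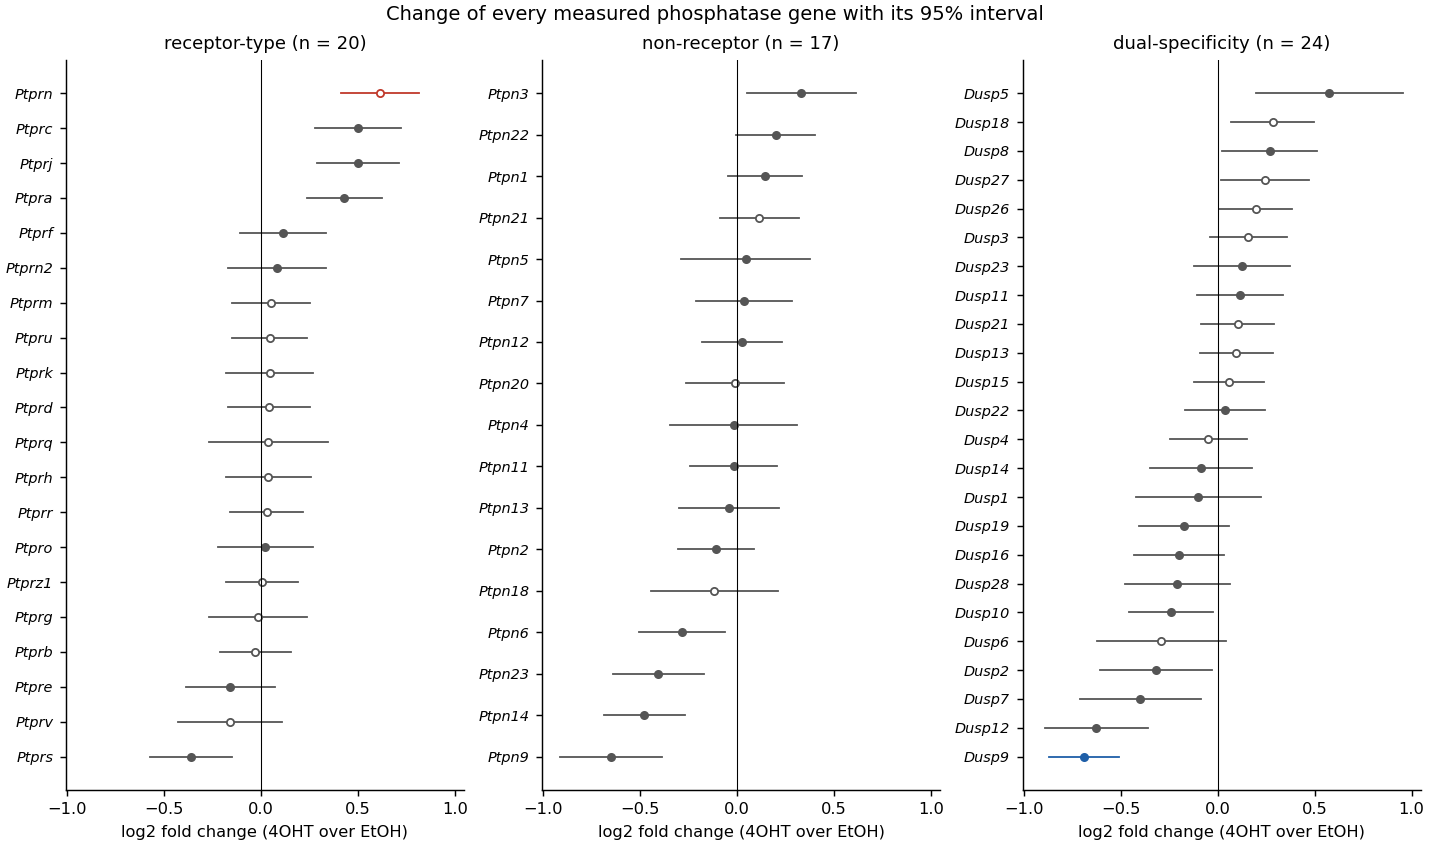
Log2 fold change (4OHT over EtOH, horizontal axis) of each of the 61 phosphatase genes, ordered by value within its class, with bars for the 95% interval of the limma fit on 2 arrays per treatment. Filled points have a mean above all array medians and open points do not. Red and blue mark the called genes, Ptprn at 0.62 and Dusp9 at −0.69.

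**Figure D2:**
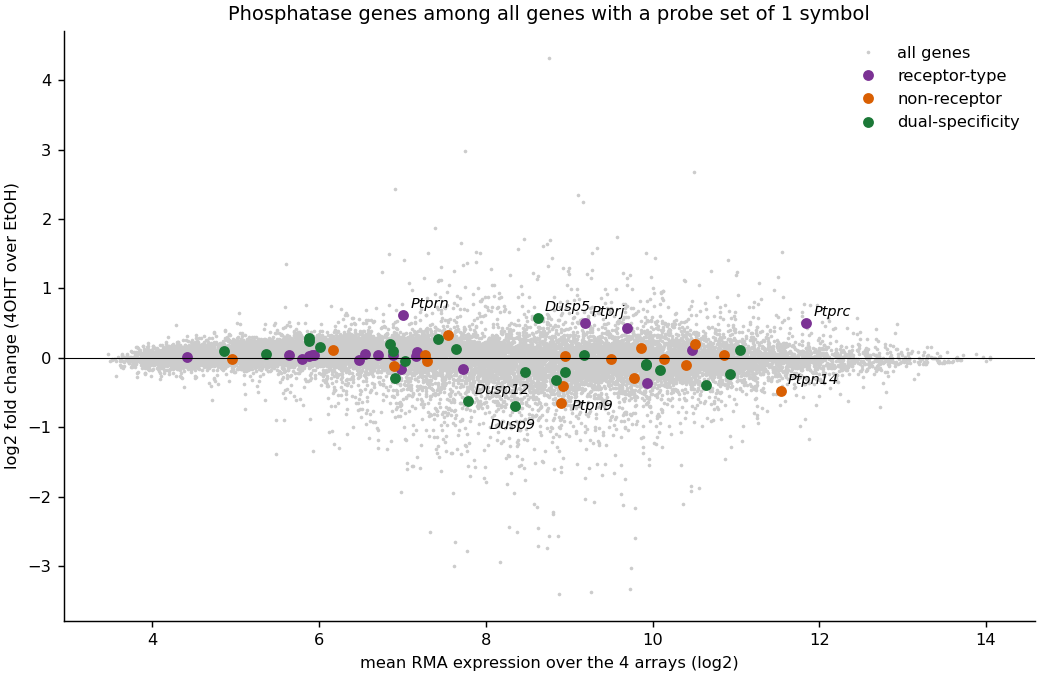
Log2 fold change (vertical axis) against the mean log2 RMA value over the 4 arrays (horizontal axis) for all 19938 genes in grey and the 3 phosphatase classes in colour. The phosphatases lie between −0.69 and 0.62, inside the range of all genes (−3.40 to 4.32).

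Among the receptor-type genes, 1 of 20 was called. Ptprn encodes IA-2, a protein of secretory granules known as an autoantigen in diabetes, whose phosphatase domain is catalytically inactive. Its log2 values were 6.74 and 6.66 on the EtOH arrays and 7.29 and 7.35 on the 4OHT arrays. Both 4OHT arrays thus lay above both EtOH arrays. Ptprn rose by 0.62 on the log2 scale (SE 0.077, 95% interval 0.41 to 0.82), which is 1.53-fold, with an adjusted p of 0.0341 in limma. With each array left out in turn its log2 fold change was 0.58 to 0.66. The call was lost in each of these fits, which leave 1 array in a group. Few or no genes of any kind were called there, so that this loss is not particular to Ptprn. Its mean of 7.01 was below the array medians, and the deposited values carry no detection calls. The related granule gene Ptprn2 had a log2 fold change of 0.09, with overlapping arrays.

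Of the other receptor-type genes, 3 had arrays apart in the higher direction and adjusted p-values just above the threshold. Ptprc, which encodes CD45, had log2 values of 11.66 and 11.53 with EtOH and 12.12 and 12.06 with 4OHT. Its log2 fold change was 0.50 (SE 0.084, 95% interval 0.28 to 0.72), with an adjusted p of 0.0606 in limma. CD45 is the membrane phosphatase on which T-cell receptor signalling depends most, and the lower 4OHT array lay above the higher EtOH array. Ptprj, which encodes CD148, a phosphatase that acts on Src-family kinases, had 8.874 and 9.002 with EtOH and 9.433 and 9.444 with 4OHT. The groups did not overlap, and the log2 fold change was 0.50 (SE 0.081, adjusted p = 0.0569 in limma). Ptpra, whose product also removes the inhibitory phosphate of Src-family kinases, had 9.51 and 9.44 with EtOH and 9.92 and 9.89 with 4OHT. Here too the groups did not overlap, and the log2 fold change was 0.43 (SE 0.073, adjusted p = 0.0639 in limma). With a minimum mean log2 value of 6, which leaves 14767 genes, these 3 genes had adjusted p-values of 0.0418, 0.0392 and 0.0459 and were called, beside 7.78% of all genes in that fit. With the replicate number as a block, their adjusted p-values in limma were 0.130, 0.137 and 0.149. With an array left out in turn the log2 fold change was 0.44 to 0.57 for Ptprc, 0.44 to 0.56 for Ptprj and 0.40 to 0.47 for Ptpra. None was called in these fits, where few or no genes of any kind were called.

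In the lower direction, Ptprs, a LAR-type receptor that binds proteoglycans, had 10.15 and 10.08 with EtOH and 9.81 and 9.71 with 4OHT. Its log2 fold change was −0.36 (SE 0.080, adjusted p = 0.107 in limma), and its arrays did not overlap. Ptprf, the LAR receptor itself, had 10.36 and 10.48 with EtOH and 10.58 and 10.48 with 4OHT. Those values nearly touched, with a log2 fold change of 0.11 (95% interval −0.11 to 0.34). Ptpre, the close relative of Ptpra, had 7.74 and 7.88 with EtOH and 7.69 and 7.61 with 4OHT, a log2 fold change of −0.16 (95% interval −0.39 to 0.07). Ptpra and Ptpre thus had estimates of opposite sign, and the difference between them was not tested. The other 13 receptor-type genes had log2 fold changes between −0.16 and 0.09 and adjusted p-values of at least 0.469, and 11 of them had overlapping arrays. Of the 20 receptor-type genes 12 had a mean below the array medians. The class median was 0.04, beside 0.03 for all genes. By count, 4 receptor-type genes (20%) had arrays apart in the lower and 5 (25%) in the higher direction. Over all genes these shares were 24.5% and 32.1%.

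**Figure D3:**
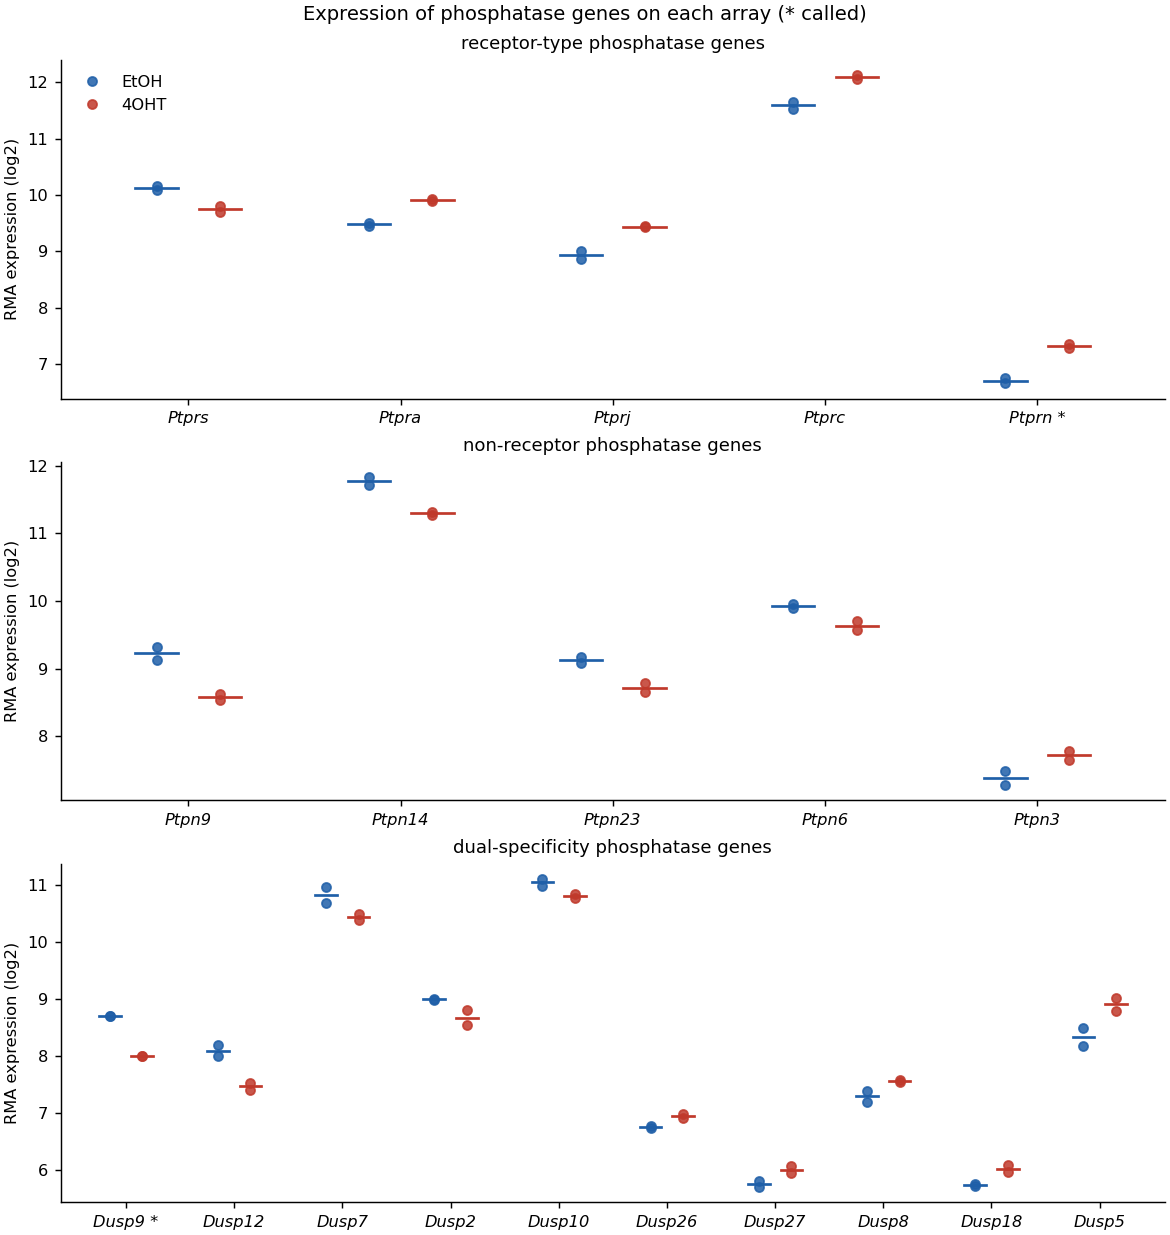
Log2 RMA value (vertical axis) on each of the 2 EtOH arrays (blue) and 2 4OHT arrays (red) for the phosphatase genes that were called (asterisk) or had an unadjusted p under 0.05 with arrays apart, in 3 panels by class, with the treatment mean as a line. Ptprn lies at 6.66 to 6.74 with EtOH and 7.29 to 7.35 with 4OHT, and Dusp9 at 8.697 to 8.699 and at 8.003 to 8.010.

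None of the 17 non-receptor genes was called in limma. An unadjusted p under 0.05 was found for 5 (29.4%), 4 lower and 1 higher, beside 20.4% of all genes. Ptpn9 encodes MEG2, a phosphatase of secretory vesicles, and was closest to the threshold. Its log2 values were 9.12 and 9.32 with EtOH and 8.53 and 8.62 with 4OHT. The groups were apart, and the log2 fold change was −0.65 (SE 0.10, 95% interval −0.91 to −0.39, adjusted p = 0.0512 in limma). Ptpn14, which restrains the YAP protein of the Hippo pathway, had the highest mean of the class, with 11.72 and 11.83 on the EtOH arrays and 11.27 and 11.32 on the 4OHT arrays. All of its 4OHT values lay below its EtOH values, with a log2 fold change of −0.48 (SE 0.080, adjusted p = 0.0603 in limma). Ptpn23, also called HD-PTP and active in endosomal sorting, had 9.08 and 9.17 with EtOH and 8.79 and 8.65 with 4OHT. These arrays did not overlap either, with a log2 fold change of −0.41 (SE 0.089, adjusted p = 0.104 in limma).

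The SH2-domain phosphatases differed in their estimates. Ptpn6 (SHP-1), an inhibitor of antigen-receptor signalling, had 9.95 and 9.90 with EtOH and 9.57 and 9.71 with 4OHT. Its groups were apart and its log2 fold change was −0.29 (SE 0.085, 95% interval −0.51 to −0.06, adjusted p = 0.182 in limma). Ptpn11 (SHP-2), which supports ERK activation, had 10.16 and 10.13 with EtOH and 10.05 and 10.20 with 4OHT, with overlapping arrays and a log2 fold change of −0.02 (95% interval −0.24 to 0.21). The difference between these 2 genes was not tested.

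Of the remaining T-cell phosphatases, Ptpn22 (PEP), a partner of the kinase Csk, had 10.37 and 10.44 with EtOH and 10.64 and 10.57 with 4OHT, a log2 fold change of 0.20 (95% interval −0.0040 to 0.40, adjusted p = 0.279 in limma). Its 4OHT arrays lay above its EtOH arrays without passing the test. Ptpn12 (PTP-PEST), of the same type, had a log2 fold change of 0.03 (95% interval −0.18 to 0.23). Ptpn1 (PTP1B) and Ptpn2 (TC-PTP), which act on JAK kinases and STAT proteins, had arrays apart in opposite directions. Ptpn1 had a log2 fold change of 0.14 (95% interval −0.05 to 0.34) and Ptpn2 one of −0.11 (95% interval −0.30 to 0.09). Ptpn7 (HePTP), a haematopoietic phosphatase that binds ERK, had a log2 fold change of 0.03 (95% interval −0.21 to 0.28) and overlapping arrays. Ptpn4, a FERM-domain phosphatase, had one of −0.02 (95% interval −0.35 to 0.31), also with overlap. The 5 non-receptor genes not named singly, Ptpn5, Ptpn13, Ptpn18, Ptpn20 and Ptpn21, had log2 fold changes between −0.12 and 0.11 and adjusted p-values of at least 0.50. In the whole class the arrays were apart for 5 genes in the lower (29.4%) and 4 in the higher direction (23.5%). Over all genes these shares were 24.5% and 32.1%. The class median was −0.02, and 14 genes had a mean above the array medians.

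Of the 24 dual-specificity genes, 1 was called. Dusp9 encodes MKP-4, a cytoplasmic phosphatase of ERK. Its log2 values were 8.697 and 8.699 with EtOH and 8.003 and 8.010 with 4OHT. The arrays of each treatment nearly coincided and the treatments were apart. Its own SDs were only 0.0014 (EtOH) and 0.0052 (4OHT), beside a prior SD of 0.091 that limma drew from all probe sets. Its SE, interval and adjusted p therefore rest mainly on that prior. Dusp9 fell by 0.69 on the log2 scale (SE 0.069, 95% interval −0.87 to −0.51), which is 1.61-fold lower, with an adjusted p of 0.0215 in limma. With each array left out in turn, the log2 fold change was −0.70 to −0.69. The call was lost each time, in fits where few or no genes of any kind were called. Of the other cytoplasmic ERK phosphatases, Dusp7 had 10.70 and 10.98 with EtOH and 10.39 and 10.49 with 4OHT, a log2 fold change of −0.40 (SE 0.12, adjusted p = 0.186 in limma). Dusp6 (MKP-3), a feedback inhibitor that ERK induces, had 7.21 and 6.90 with EtOH and 6.71 and 6.81 with 4OHT, a log2 fold change of −0.29 (SE 0.13, adjusted p = 0.321 in limma). Both 4OHT arrays thus lay below both EtOH arrays in each of these 3 genes, a group set after the values were seen. The same held for 24.5% of all genes and 37.0% of those above the array medians. Dusp6 had a mean of 6.91, below the array medians, where it held for 10.4% of all genes. With an array left out in turn the log2 fold change was −0.54 to −0.26 for Dusp7, both ends by leaving out an EtOH array, and −0.45 to −0.14 for Dusp6, likewise.

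The nuclear, inducible MAP kinase phosphatases did not share a direction, and none was called. Dusp5, which is specific to ERK, had 8.49 and 8.18 with EtOH and 8.79 and 9.02 with 4OHT. Its groups were apart and its arrays spread widely, with a log2 fold change of 0.57 (SE 0.14, 95% interval 0.20 to 0.95, adjusted p = 0.133 in limma). Dusp2 (PAC-1), first known from activated T cells, had 9.01 and 8.98 with EtOH and 8.55 and 8.81 with 4OHT. The groups were apart in the other direction, with a log2 fold change of −0.32 (SE 0.11, 95% interval −0.61 to −0.03, adjusted p = 0.235 in limma). It was −0.19 without 4OHT replicate 1. Dusp1 (MKP-1), an immediate-early gene, had a log2 fold change of −0.10 (95% interval −0.42 to 0.22) and Dusp4 (MKP-2) one of −0.05 (95% interval −0.25 to 0.15), both with overlapping arrays.

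Among the phosphatases of JNK and p38, Dusp10 (MKP-5) had 10.996 and 11.113 with EtOH and 10.778 and 10.851 with 4OHT. Its log2 fold change was −0.24 (SE 0.083, adjusted p = 0.234 in limma), with arrays apart. Dusp16 (MKP-7) had a log2 fold change of −0.20 (95% interval −0.43 to 0.03, adjusted p = 0.322 in limma), also with its 4OHT arrays below its EtOH arrays. Dusp8 had 7.39 and 7.20 with EtOH and 7.55 and 7.58 with 4OHT, a log2 fold change of 0.27 (SE 0.093, adjusted p = 0.241 in limma). Of all 10 MAP kinase phosphatase genes, 1 was called and 8 had a negative estimate, with 6 apart in the lower and 2 in the higher direction. Their median was −0.22. This group was set after the values were seen, so that its counts do not establish a shared direction. For all genes above the array medians, where 8 of these 10 genes lie, 37.0% were apart in the lower and 27.2% in the higher direction. The median there was −0.03, and 5845 of 10560 genes had a negative estimate.

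The atypical dual-specificity genes, which lack the MAP kinase-binding domain, held no call among 14. Dusp12, a zinc-binding phosphatase, had 8.001 and 8.192 with EtOH and 7.412 and 7.528 with 4OHT. Its groups were apart, with a log2 fold change of −0.63 (SE 0.10, 95% interval −0.89 to −0.36, adjusted p = 0.0560 in limma). Dusp14 (MKP-6) and Dusp22 (JKAP), both known to dampen T-cell receptor signals, had log2 fold changes of −0.09 (95% interval −0.35 to 0.18) and 0.04 (95% interval −0.17 to 0.24). Both had overlapping arrays. Dusp11, an RNA phosphatase and the gene with the highest mean of the class, had 10.93 and 11.07 with EtOH and 11.14 and 11.08 with 4OHT, a log2 fold change of 0.11 (95% interval −0.11 to 0.34). Dusp18, Dusp27 and Dusp26 had unadjusted p-values under 0.05 with arrays apart and log2 fold changes of 0.28, 0.24 and 0.19 (adjusted p = 0.175, 0.249 and 0.260 in limma). All 3 had means below the array medians. The other 7 dual-specificity genes, Dusp3, Dusp13, Dusp15, Dusp19, Dusp21, Dusp23 and Dusp28, had log2 fold changes between −0.21 and 0.16 and adjusted p-values of at least 0.360. Their arrays were apart in the lower direction for 2 and in the higher for 5, beside 24.5% and 32.1% of all genes.

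In the whole dual-specificity class the arrays were apart for 9 genes in the lower (37.5%) and 11 in the higher direction (45.8%). Over all genes these shares were 24.5% and 32.1%. An unadjusted p under 0.05 in limma was found for 10 of the 24 genes (41.7%), beside 20.4% of all genes. The class median was −0.01. Within this class the counts in each direction were unlike for brighter and dimmer probe sets. Of the 15 genes with a mean above the array medians, 8 were apart in the lower and 4 in the higher direction, with a median log2 fold change of −0.17. Of the 9 below, 1 was apart in the lower and 7 in the higher direction, with a median of 0.10. All genes above the array medians had 37.0% apart in the lower and 27.2% in the higher direction and a median of −0.03. All genes below the array medians had 10.4% apart in the lower and 37.5% in the higher direction and a median of 0.06. The change of direction with level was thus not particular to this class. The part of probe set level in these counts was not tested.

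For 5 of the 61 genes more than 1 probe set was measured, and not all agreed. The second probe set of Ptprj had a log2 fold change of 0.30, with arrays apart in the same direction as the first (0.50). Dusp12 had a dimmer second probe set at −0.09, lower but far smaller than the −0.63 of the first. For Dusp8 the estimates were 0.27 and −0.06, and for Ptpn2 they were −0.11 and 0.18, so that the sign differed between probe sets. Ptpn3, a FERM-domain phosphatase known to act on the T-cell receptor zeta chain, had 12 probe sets. The brightest had 7.49 and 7.28 with EtOH and 7.78 and 7.65 with 4OHT, a log2 fold change of 0.33 (adjusted p = 0.210 in limma). The other 11 overlapped between treatments, with log2 fold changes between −0.09 and 0.11.

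Genes around the phosphatases were counted from 4 lists, chosen with earlier results of these data known. None of the 17 measured MAP kinases and MAP kinase kinases was called in limma. An unadjusted p under 0.05 was found for 2 of these 17 (11.8%), beside 20.4% of all genes. In the other lists, in the order given below, it was found for 12 of 28 (42.9%), 15 of 23 (65.2%) and 9 of 36 (25%). Above the array medians the share of all genes was 30.4%. Of 28 measured ERK feedback and immediate-early genes 2 fell: Jun, a subunit of AP-1, by 1.53 (2.88-fold lower, adjusted p = 0.0223 in limma), and Spred2, an inhibitor of the ERK pathway, by 0.77 (adjusted p = 0.0408). The median of that list was 0.05. Among 23 measured tyrosine kinases and adaptors of T cells, where Lck was not analysed here, 3 fell and 3 rose. Those that fell were the kinases Fyn, a substrate of CD45 (log2 fold change −0.60, adjusted p = 0.0379), Syk (−0.69, adjusted p = 0.0385) and Tec (−0.58, adjusted p = 0.0348).

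Those that rose were Txk, a Tec-family kinase (log2 fold change 1.53, adjusted p = 0.0123 in limma), Sit1, an adaptor that binds SHP-2 (1.15, adjusted p = 0.0141), and Ptprcap, the protein associated with CD45. Ptprcap had log2 values of 11.32 and 11.30 with EtOH and 11.81 and 11.90 with 4OHT. Both 4OHT arrays lay above both EtOH arrays, and Ptprcap rose by 0.55 (SE 0.076, adjusted p = 0.0413), beside the 0.50 of Ptprc that was not called. Of 36 other phosphatases with a tyrosine phosphatase fold or activity, Ptp4a3 (PRL-3) rose by 0.66 (adjusted p = 0.0384) and Ptpmt1, a phosphatase of mitochondria, fell by 0.61 (adjusted p = 0.0477). In all, 10 of 104 list genes were called, beside 4.23% of all genes. Calls were more frequent above the array medians (770 of 10560 genes) than below (73 of 9378). In the 4 lists, in the order given, 12 of 17, 14 of 28, 21 of 23 and 28 of 36 genes lay above. The part of probe set level in the list count was not tested.

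**Figure D4:**
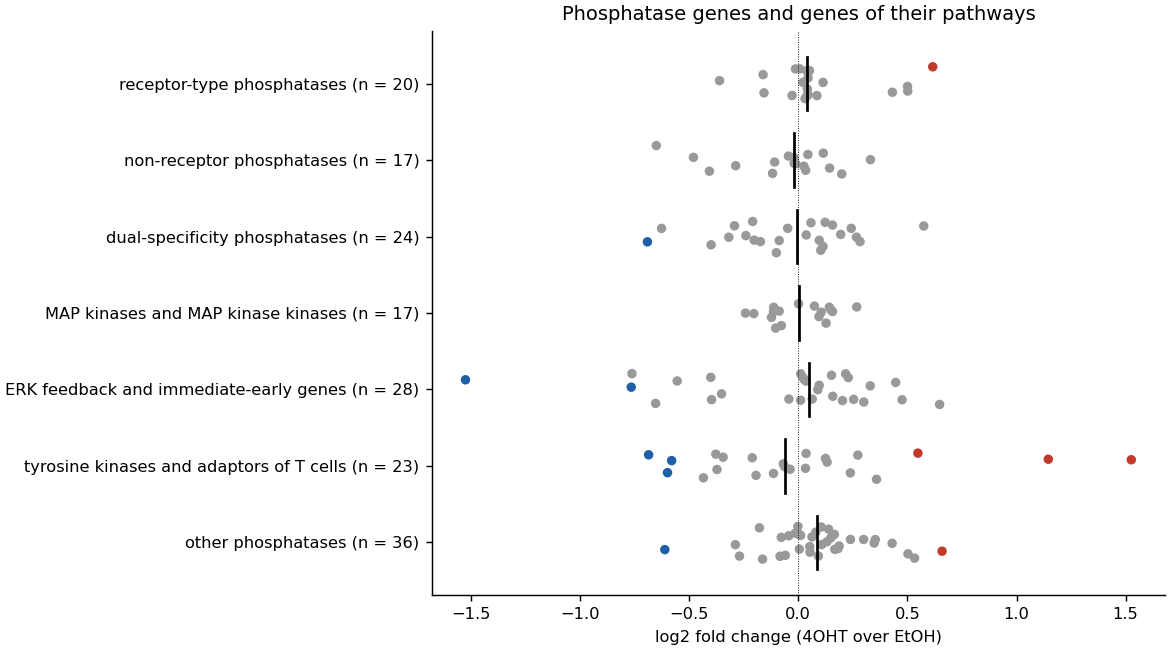
Log2 fold change (4OHT over EtOH, horizontal axis) of each gene in the 3 phosphatase classes and the 4 lists of related genes (rows, with the number measured), as points. Blue points were called lower and red points higher, grey points were not called, and black bars mark the medians, which lie between −0.06 and 0.09.

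How many phosphatase genes were called depended on which features entered the fit. When the fit was limited to the 21789 probe sets with 1 gene symbol, 14 of the 61 phosphatase genes were called, 7 lower and 7 higher, beside 13.7% of all genes (8.72% lower and 5.03% higher). Receptor-type genes then called were Ptpra, Ptprc, Ptprj, Ptprn and Ptprs. Non-receptor genes were Ptpn3, Ptpn9, Ptpn14 and Ptpn23. Dual-specificity genes were Dusp5, Dusp7, Dusp9, Dusp12 and Dusp18. The log2 fold changes are the same in both fits, and limma estimated 8.44 prior degrees of freedom there in place of 2.66.

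**Figure D5:**
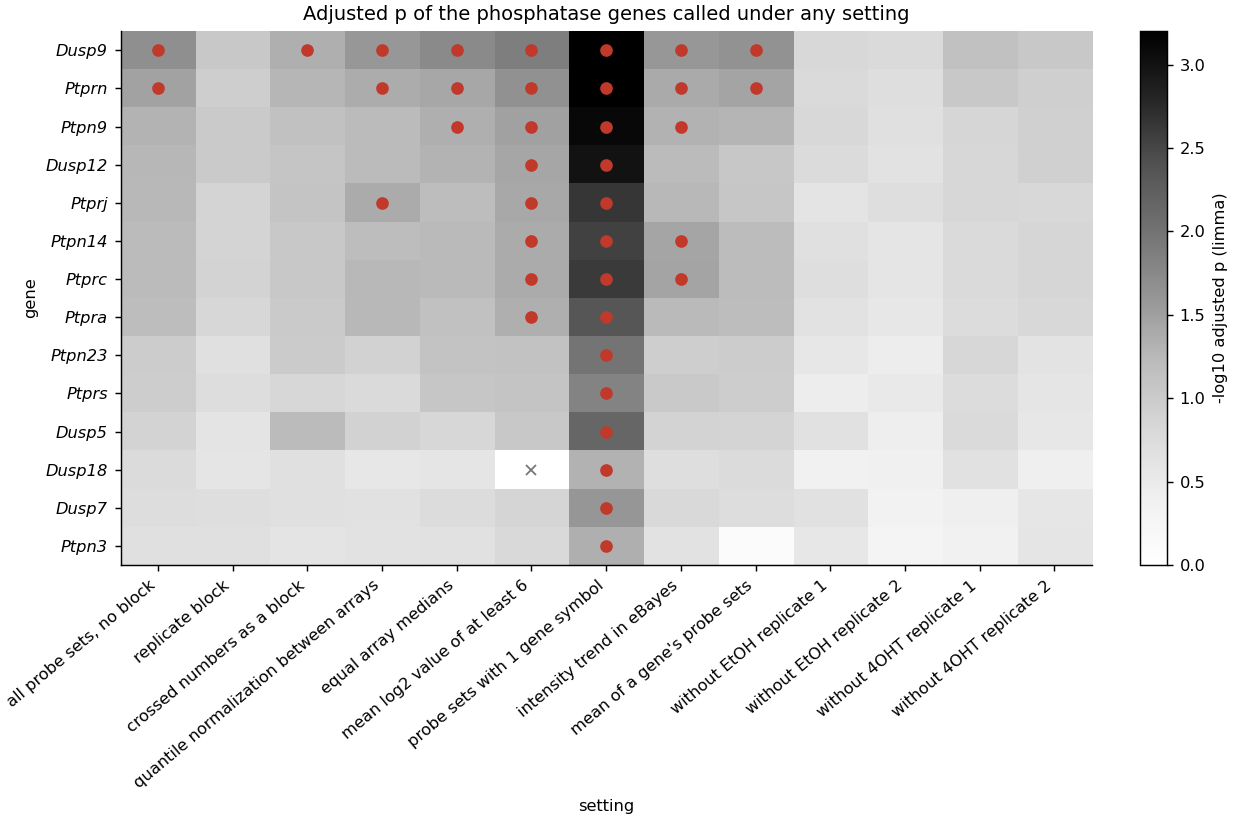
Minus log10 of the adjusted p (grey scale, darker is smaller) of each of the 14 phosphatase genes called under any setting (rows) under each way of fitting (columns). Red dots mark calls at an adjusted p under 0.05, and the cross marks Dusp18, whose mean was below 6. All 14 are called in the column of probe sets with 1 gene symbol, and none in the columns of the replicate block or of an array left out.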

How the data were processed

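Total RNA of the 4 samples was hybridised to Affymetrix Mouse Gene ST arrays. For 35556 probe sets the authors deposited log2 values. According to the submitters' processing notes these were made with RMA in Affymetrix Expression Console 1.1. RMA corrects background, quantile-normalizes the probe signals and summarises each probe set. After RMA a change common to most genes is not visible, and differences of dim probe sets are compressed. For the probe sets, the genome build was not given in the sources used. Groups were taken from the sample labels. The comparison of 4OHT with EtOH used these deposited log2 values in limma 3.58.1 under R 4.3.3 (eBayes after lmFit, two-sided, no filter, no block, residual degrees of freedom 2), with Benjamini-Hochberg adjustment over all probe sets. Of the probe sets, 21789 have 1 gene symbol, 1621 several and 12146 none. Genes named singly were all called genes, 22 phosphatases with a known part in T cells, the 3 with the highest mean per class, and uncalled ones with an unadjusted p under 0.05 and arrays apart. The members and lists were chosen with earlier results of these data known, and the grouping by role was set after the values were seen. As alternatives, the replicate number was used as a block, arrays were quantile-normalized again or set to equal medians, means under 6 or probe sets without exactly 1 symbol were left out, an intensity trend was fitted, a gene's probe sets were averaged, arrays were left out one at a time (a lone array is taken to vary as the other group does), and the threshold was set at 0.01. The scripts were tested on simulated data.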

Additional observations from a re-analysis of the deposited data

How the results depend on the processing

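The numbers 1 and 2 do not establish a pairing of the samples, since only 2 pairs exist and the deviations of same-numbered arrays correlated at −0.134. With the replicate number as a block, 0 receptor-type, 0 dual-specificity and 0 list genes were called (limma, 30 genes in all or 0.15%, 3275 at an unadjusted p under 0.05), with adjusted p-values of 0.110 for Ptprn and 0.0902 for Dusp9. A block of crossed numbers, chosen after seeing the data, gave 0 receptor-type, 1 dual-specificity (Dusp9) and 4 list genes, beside 2.68% of all genes. With an adjusted p under 0.01, 0 receptor-type, 0 dual-specificity and 0 list genes were called. The share of all genes at this threshold was not counted, so that this absence of calls cannot be read as particular to the phosphatases. Quantile normalization gave 2 receptor-type genes (4.14% of all genes), equal array medians 1 non-receptor gene (4.65%), and an intensity trend 2 receptor-type and 2 non-receptor genes (4.61%). The minimum mean of 6 gave 4 receptor-type, 2 non-receptor and 2 dual-specificity genes among 50 tested, beside 1149 of all 14767 genes (7.78%). Probe sets with 1 symbol gave 5, 4 and 5 of the classes and 30 list genes, beside 13.7% of all genes. With each array left out in turn, the calls were 0 to 0 receptor-type, 0 to 0 dual-specificity and 0 to 3 list genes, while 12 to 17 phosphatase genes had an unadjusted p under 0.05. Of all 19938 genes, 0 were then called without either EtOH array, 241 without 4OHT replicate 1 and 79 without 4OHT replicate 2, and 2586 to 3166 had an unadjusted p under 0.05, so that the absence of calls is not particular to the phosphatases. For the 36 phosphatase genes examined singly, 430 alternative values kept the side of the threshold in 396 cases, gained a call in 23 and lost it in 11, and no called value changed sign. Among uncalled values, 11 in 8 genes changed sign. Other scalings moved the median of all probe sets from 0.02 to between 0.0016 and 0.02. Precision is limited by having 4 arrays, and 24 of the 61 genes had means below the array medians, where the values carry no detection calls.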
